A study of Mus musculus with 17 samples.

Results

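Common myeloid progenitors (CMPs), marrow cells that give rise to granulocytes and monocytes as well as to red cells and platelets, were compared between mice lacking the microRNAs let-7b and let-7c and wild-type mice. The comparison used the 3 libraries labelled Let-7b/c knock-out and the 3 labelled wild-type from adult bone marrow, which are 6 of the 17 libraries of the series, chosen by their genotype and tissue labels. The knockout libraries carry the strain label albino black 6 and are called knockout libraries 1, 2 and 3. The wild-type libraries carry the strain label C57BL/6J and are called wild-type libraries 2, 5 and 6, as their labels number them. Doxycycline induction of Lin28b is entered as a treatment for every library alike, these 6 included. Ages, sexes, the let-7c gene that was deleted and whether libraries came from separate animals could not be read from the labels, so a p-value here measures no more than library-to-library spread, part of which may be technical. RNA was counted for 24416 genes, and 13558 passed a filter on low counts and were tested. The 6 libraries held 15712282 to 19086842 counts.

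let-7 microRNAs are short RNAs that guide the silencing machinery to messages that carry complementary sites in the 3′ untranslated region (UTR), which lowers the level and translation of those messages. LIN28B, which binds RNA and is made in fetal blood progenitors, blocks the maturation of let-7, so that fetal cells hold little let-7 and adult cells much. Hmga2, a chromatin protein of stem cell growth, is the best known target of let-7 in blood cells.

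The family shares its seed, the stretch of bases from 2 to 8 that pairs with target messages, shown in capitals to make clear what let-7b and let-7c have in common with the members that the genotype label does not name. The mature sequences below are RefSeq entries for GRCm38.p6, 5′ to 3′.
let-7b-5p: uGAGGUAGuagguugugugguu
let-7c-5p: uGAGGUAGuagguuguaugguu
let-7a-5p: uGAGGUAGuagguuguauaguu
let-7g-5p: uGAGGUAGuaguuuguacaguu
let-7i-5p: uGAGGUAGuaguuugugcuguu
Counting from the 5′ end, let-7c differs from let-7b by G17A alone, let-7a by G17A and G19A, let-7g by G12U, G17A, U18C and G19A, and let-7i by G12U, U18C and G19U. let-7d, let-7e, let-7f and miR-98 carry the same seed. The genes of let-7b and let-7c-2 lie side by side on chromosome 15, from base 85706603 to 85707403, and a second let-7c gene, Mirlet7c-1, lies on chromosome 16. The files count messages and not mature microRNAs: the hairpins Mirlet7b and Mirlet7c-2 had 0 counts in all libraries, so the loss of let-7b or let-7c was not checked here.

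The libraries of the groups also differed in sex-linked RNA, and this split is the same as the split by genotype and strain label. Xist, the RNA that silences the second X chromosome of female cells, stood at 228, 183 and 160.4 CPM (counts scaled to each library's size) in knockout libraries 1, 2 and 3. It stood at 0.248, 0.176 and 0.274 CPM in wild-type libraries 2, 5 and 6. Ddx3y, an RNA helicase gene of the Y chromosome, stood at 0.0541, 0.170 and 0.156 CPM in the knockout and at 137, 151 and 146 CPM in the wild type. Every knockout library was thus high in Xist and near 0 in Ddx3y, and every wild-type marrow library the reverse. Uty, Kdm5d and Eif2s3y, the other called Y genes, were at most 0.226 CPM in each knockout library and at least 37.5 CPM in each wild-type library. Eif2s3x, an X-linked translation factor gene that escapes silencing, stood at 427, 477 and 450 CPM against 301, 245 and 277 CPM. All 6 of these genes were called, and each call was lost without 1 or more single libraries, with adjusted p up to 0.129. The fit takes spread from all 7 groups of the series, and 2 fetal liver groups were mixed in these genes. Xist ranged from 6.82 to 107 CPM in wild-type fetal liver and from 0.352 to 155 CPM in labelled Lin28b knockout fetal liver. The adjusted p of sex-linked genes thus does not measure the spread within these 6 libraries alone. Genotype, strain label and sex-linked RNA therefore cannot be told apart within these 6 libraries. Among the bone marrow libraries with inducible LIN28B, of C57BL/6J label, the 2 without vavcre were low in Xist (2.003 and 0.914 CPM) and the 2 with vavcre high (164 and 173 CPM), so that levels in the latter show a gene in other marrow libraries with high Xist.

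**Figure D1:**
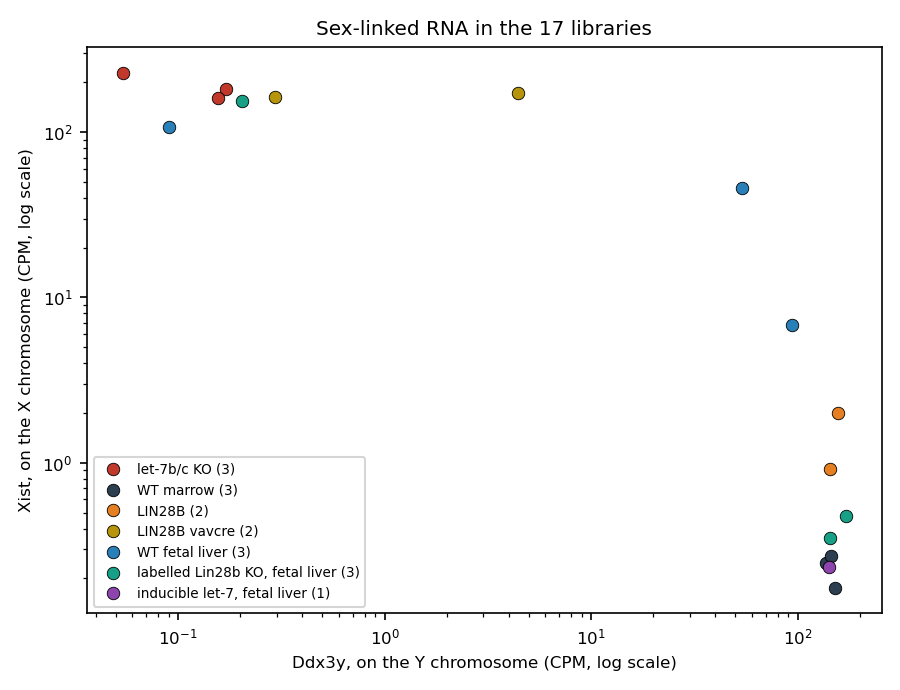
Xist against Ddx3y in the 17 libraries, both in CPM on log axes, 1 point per library, coloured by group. The 3 knockout libraries lie at Xist of 160.4 to 228 CPM with Ddx3y at or under 0.170 CPM, and the 3 wild-type marrow libraries at Ddx3y of 137 to 151 CPM with Xist at or under 0.274 CPM.

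Progenitor identity was checked on markers. Mpo, the myeloperoxidase of granules, stood at 13835, 16912 and 13563 CPM in the knockout and 9493, 11443 and 9687 CPM in the wild type (adjusted p = 0.155), and Cd34 at 6.51 to 10.1 CPM over the 6 libraries. Kit had 0 counts in all 17 libraries and could not serve, and Ly6g was not analysed here. Cd3e and Ncr1 (T and NK cells), Alb (hepatocytes), Col1a1 (stroma) and Cdh5 (endothelium) were each at most 1.15 CPM, and Cd79a (B cells) at most 3.75 CPM in the 6 libraries. Other members of these lists were not near 0. The summed T and NK list stood at 293 to 401 CPM in the knockout and 470 to 477 CPM in the wild type. The summed hepatocyte list stood at 380 to 434 and 354 to 403 CPM. The single markers therefore do not show that RNA of these lists was absent. Of the 15 tested genes of the progenitor identity list, Csf1r and Csf2rb rose, Gata2 fell and the median log2 difference was 0.37. That is 20% called, beside 2.25% of all tested genes.

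Of the 13558 genes tested, 305 were called at an adjusted p under 0.05, which is 2.25% (1.33% higher and 0.922% lower in the knockout). Of these, 180 rose and 125 fell, and 117 (0.863%) changed at least 2-fold. The median log2 difference over all tested genes was 0.00. With 1 library left out, 96 genes were called without wild-type library 2, 130 without knockout library 2, 142 without wild-type library 6, 191 without wild-type library 5, 246 without knockout library 1 and 378 without knockout library 3. With the Xist share of each library (Xist over the sum of Xist and Ddx3y) as a covariate, a fit chosen after seeing the data, 28 genes were called, 18 higher and 10 lower, all of them among the 305. The share was at least 0.999 in each knockout library and at most 0.00188 in each wild-type marrow library, but 0.068 to 0.999 in wild-type fetal liver. This fit thus takes the effect of the share almost only from fetal liver. A kept or lost call in it does not separate genotype from sex-linked RNA in marrow. The 28 include 17 genes described below, namely Ccr2, Ccr1, Pld4, H2-Ab1, Jun, Fos, Dusp1, Hspa1a and Hspa1b higher, and Hmga2, Cbx7, Rabl2, Plxdc2, Oasl2, Cavin2, F2rl2 and Icam4 lower. The other 11 were Rab35, Ncf4, Tspo, Cenpv, Il6st, Ctsz, Ier2, Tuba1c and Tubb6 higher, and Samd14 and Plxnc1 lower, which are named here after their values were seen. In what follows, a call held with each of the 6 libraries left out in turn unless a library is named, and a gene outside these 28 lost its call with the Xist share.

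Hmga2, the marker target of let-7, was lower in the knockout than in the wild type. It stood at 11.1, 5.66 and 6.66 CPM in knockout libraries 1, 2 and 3 and at 31.9, 28.5 and 35.4 CPM in wild-type libraries 2, 5 and 6. The highest knockout library was thus below the lowest wild-type library. The means were 7.80 ± 2.89 CPM (SD, n = 3) and 31.9 ± 3.46 CPM (SD, n = 3), a log2 difference of -2.03 (SE 0.18, adjusted p = 2.79e-05), or 4.09-fold lower. In other groups of the series, Hmga2 stood at 59.5 to 92.1 CPM after LIN28B induction (4 libraries) and at 520.1 to 542 CPM in wild-type fetal liver (3 libraries). The 3 knockout libraries were the lowest of these 13 libraries.

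The counted Hmga2 transcript (NM_010441, chromosome 10, 120361268 to 120476469 in GRCm38) holds 7 let-7 seed matches in its 3′ UTR. The site that begins at UTR base 21 is an 8mer, which pairs with the whole seed and has an A opposite base 1, and the others are matches of 7 bases. These 3 show the kinds of match, with the matched bases in capitals, on the minus strand of GRCm38.
Hmga2 8mer, chr10:120364224-120364251: ggggcgccgacattcaatttCTACCTCA
Hmga2 7mer with A, chr10:120363140-120363167: gtgaaagaccgcagtaccactTACCTCA
Hmga2 7mer to base 8, chr10:120362988-120363015: aataatccccactcctcaataCTACCTC
These are matches of letters in the reference and not tested sites.

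The other genes of the LIN28B axis did not pass the test. Lin28b stood at 0.270, 0.283 and 0.104 CPM in the knockout and 0.745, 0.0586 and 0.274 CPM in the wild type, and Lin28a at 0.208 to 0.811 and 0.117 to 0.603 CPM. Igf2bp1, Igf2bp2 and Igf2bp3, mRNA-binding proteins of fetal tissue, stood at 0.226 to 0.865, 4.597 to 6.76 and 2.81 to 4.19 CPM in the knockout and 0.234 to 0.844, 5.68 to 8.34 and 3.72 to 4.22 CPM in the wild type. All overlapped between the groups. In wild-type fetal liver their means were 104 CPM for Lin28b and 207, 236 and 281 CPM for the 3 Igf2bp genes, so the marrow libraries of both genotypes lay far below fetal levels.

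Among 62 let-7 targets listed from the literature, 45 were tested, 0 rose and 4 fell (8.89% called, beside 2.25% of all tested genes). The median log2 difference was -0.11 against 0.00 over all genes. At an unadjusted p under 0.05, 3 were higher and 7 lower by edgeR, and DESeq2 called 2 higher and 5 lower. Without knockout library 3, or without wild-type library 5, 1 member was called higher, and with the Xist share the 1 call was Hmga2. Besides Hmga2, the called targets were Mycn, a MYC family transcription factor, Tgfbr3, a co-receptor of TGF-beta, and Arid3b, a DNA-binding protein. Mycn stood at 50.1, 10.8 and 39.1 CPM in the knockout and 107, 121 and 116 CPM in the wild type. Knockout library 2 was the lowest by far, and the groups did not overlap (log2 difference -1.78, SE 0.33, adjusted p = 0.0116). The call was lost with only these 6 libraries in the fit (adjusted p = 0.0588) and with bone marrow libraries only (0.0713). Tgfbr3 stood at 39.7, 43.6 and 64.6 CPM against 125, 98.6 and 86.9 CPM (log2 difference -1.07, SE 0.18, adjusted p = 0.00678). Arid3b stood at 11.2, 8.89 and 9.52 CPM against 18.7, 15.1 and 14.9 CPM (log2 difference -0.72, SE 0.14, adjusted p = 0.0133), and its call was lost without knockout library 2 (adjusted p = 0.0711) and without wild-type library 2 (adjusted p = 0.0792). Mycn and Arid3b were higher than in wild-type marrow in each LIN28B library (143 to 169 and 30.3 to 41.0 CPM) and each fetal liver library (199 to 229 and 38.7 to 45.8 CPM).

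Matches in the other 3 called targets are printed to show that each carries the seed complement, on the minus strand of GRCm38 in each case.
Mycn 7mer with A, chr12:12936499-12936526: cacacctaagtactgtaagaaTACCTCA
Tgfbr3 8mer, chr5:107106960-107106987: cctgtctttttgtactgtaaCTACCTCA
Arid3b 7mer with A, chr9:57792443-57792470: aggagattgatgcacagaattTACCTCA
Mycn held 2 matches, Tgfbr3 1 and Arid3b 5.

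Other well-known targets did not pass the test in either direction. Ccnd2, a D cyclin with 3 matches, stood at 393, 296 and 333 CPM against 412, 357 and 390.2 CPM. Cdc34, a ubiquitin-conjugating enzyme with 2 matches, stood at 151, 163 and 117 CPM against 108, 112 and 110.3 CPM (log2 difference 0.38, adjusted p = 0.0729). Trim71, a stem cell ubiquitin ligase with 6 matches, was at most 0.410 CPM in all 6 libraries. Myc and Hmga1 had 0 counts and were not analysed here.

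**Figure D2:**
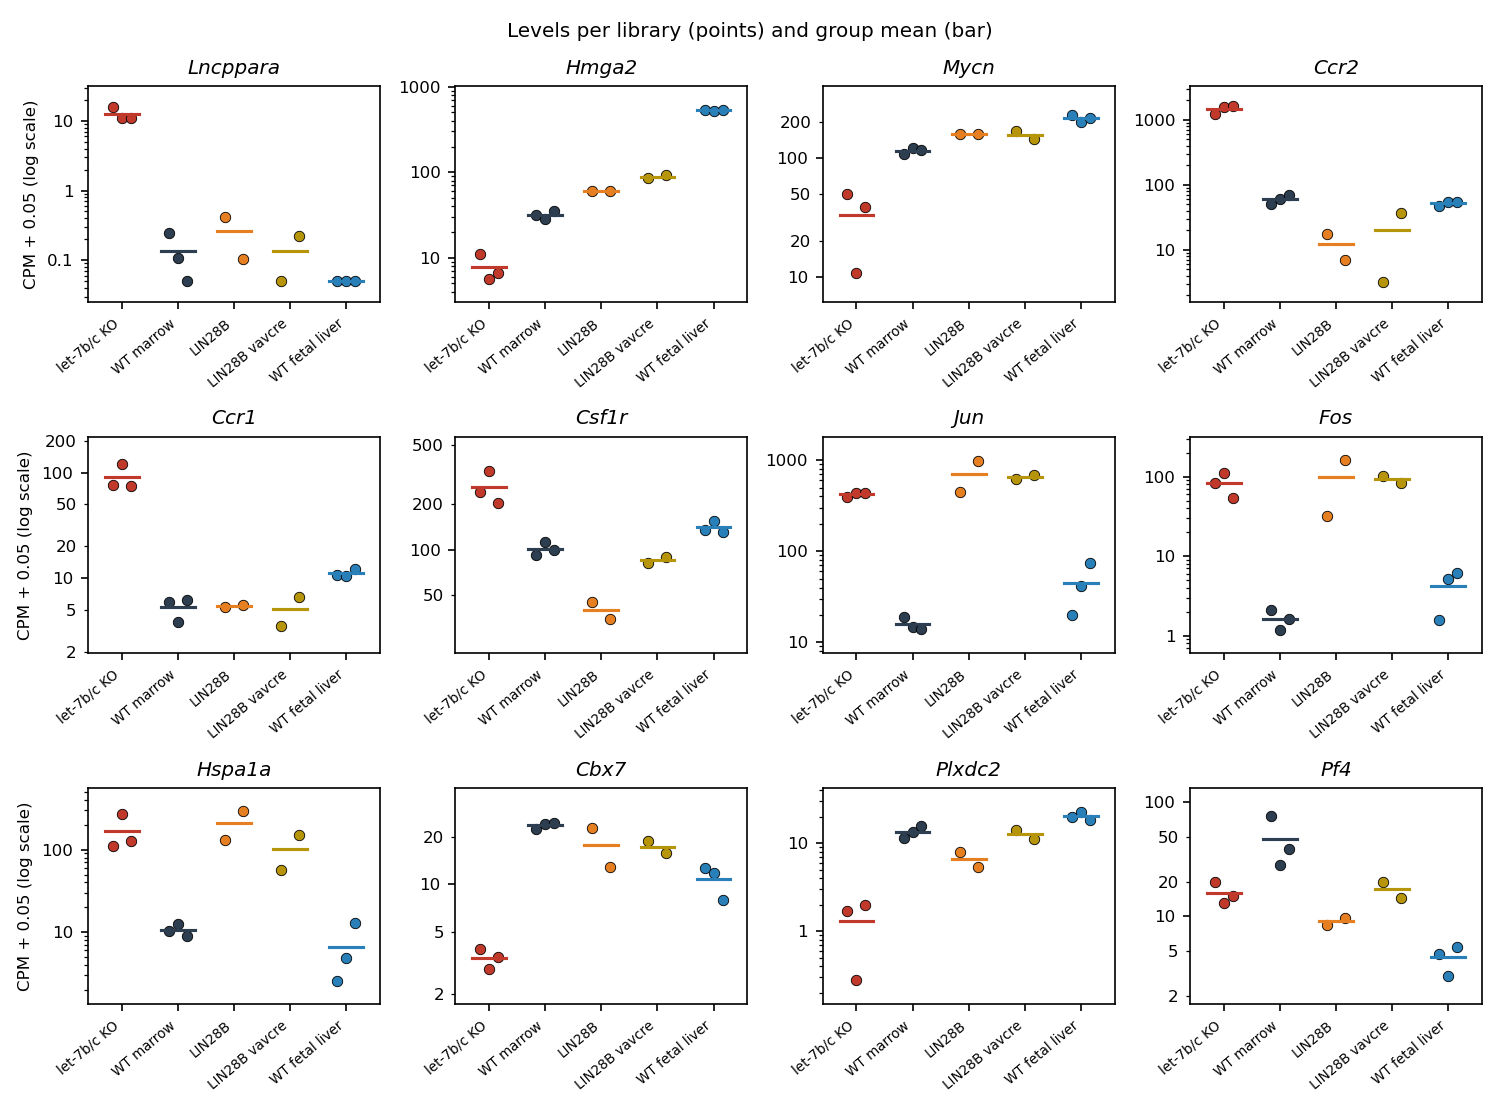
CPM + 0.05 on a log axis per library (points) with group means (bars) for 12 genes, in the let-7b/c knockout (3), wild-type marrow (3), LIN28B marrow without vavcre (2) and with vavcre (2) and wild-type fetal liver (3). Hmga2 lies at 5.66 to 11.1 CPM in the knockout and 28.5 to 35.4 CPM in wild-type marrow, Ccr2 at 1235 to 1605 against 49.9 to 68.3 CPM, and Jun is high in both the knockout and the LIN28B libraries.

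All genes with a let-7 seed match were then described together. The letters searched were CTACCTC, CTACCTCA and TACCTCA, on the message strand only, in the 3′ UTRs of 12437 tested genes. CTACCTCA contains both of the others and was counted once. At least 1 match was found in 1893 genes (15.2%), whose median log2 difference was -0.02, beside 0.01 in the 10544 genes with none. With 2 or more matches (336 genes) the median was -0.03, with 3 or more (65 genes) -0.11, and with an 8mer (414 genes) -0.01. On a log2(CPM + 0.5) scale against the wild-type mean, the median of genes with at least 1 match lay between -0.04 and -0.02 in the 3 knockout libraries, with an SD of 0.00853 between them. For 3 or more matches the same medians were -0.025, -0.013 and -0.046, nearer 0 than the fitted -0.11. For the median log2 difference, let-7 site genes had 0.0117 without wild-type library 2 and 0.00439 without wild-type library 6. Its sign thus changed, but the medians of all genes rose too, to 0.0363 and 0.0390. In both fits the site genes stayed below all genes, as in the main fit (-0.0196 against 0.0028). The differences are thus small, and genes with matches also had longer UTRs (median 2285 bases, against 830 bases with none). Of genes with a match, 34 rose and 25 fell (3.12% called), beside 2.22% of genes with none. In the comparisons that share the wild-type marrow controls, the median for 3 or more matches was 0.08 for LIN28B induction and 0.08 for wild-type fetal liver, where it was -0.07 and -0.05 for genes with none.

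**Figure D3:**
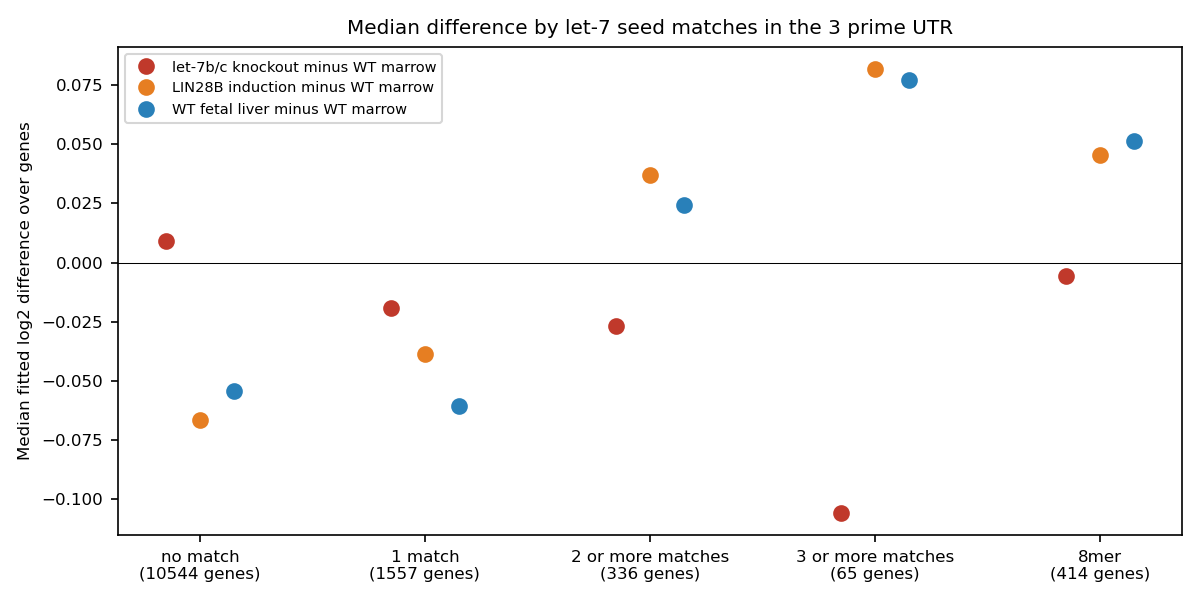
Median fitted log2 difference over genes (vertical axis) by class of let-7 seed match in the 3′ UTR (horizontal axis, with the number of genes), for 3 comparisons that share the wild-type marrow libraries. The knockout lies at 0.01 without a match and -0.11 with 3 or more, LIN28B induction and wild-type fetal liver at 0.08 with 3 or more.

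Called genes with the most matches went both ways. Hmga2, Arid3b, Mycn, Bend4, Ikzf2 and Etnk1 fell and Macir, Gatm, Dtx4, Rab3il1, Rnf225 and 5031439G07Rik rose. Ikzf2, the transcription factor Helios, stood at 57.2, 45.4 and 48.5 CPM against 80.5, 76.0 and 87.9 CPM (adjusted p = 0.0102), a call lost without knockout library 2 (adjusted p = 0.0593), wild-type library 2 (0.0501) or wild-type library 6 (0.0568). Macir, with 5 matches, rose from 42.8, 48.0 and 48.6 CPM in the wild type to 56.4, 71.0 and 62.5 CPM (adjusted p = 0.0372). Its call was lost without knockout library 2 (adjusted p = 0.142) or any single wild-type library (adjusted p = 0.0675 to 0.144). Bend4, Etnk1, Gatm, Dtx4, Rab3il1, Rnf225 and 5031439G07Rik each lost the call without wild-type library 2 (adjusted p = 0.0628 to 0.108). All of these except Rnf225 also lost it without knockout library 2 (0.0502 to 0.0866), Bend4 and Rnf225 without wild-type library 5, Dtx4, Rab3il1, Rnf225 and 5031439G07Rik without wild-type library 6, and Bend4, Etnk1 and Rnf225 without knockout library 1. None of the 18 tested genes of microRNA processing and silencing was called by edgeR or DESeq2, with 1 higher and 1 lower at an unadjusted p under 0.05. Dicer1, the enzyme that cuts microRNA precursors, stood at 97.3 to 113 CPM in the knockout and 97.1 to 108 CPM in the wild type.

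The host RNA of let-7b and let-7c-2 was higher in the knockout than in the wild type. Lncppara (NR_110483, also named Mirlet7bhg, chromosome 15, 85703773 to 85707524), a long noncoding RNA whose gene holds both hairpins, stood at 15.8, 11.0 and 11.1 CPM in the knockout and at 0.199, 0.0586 and 0 CPM in the wild type. The knockout libraries held 700 counts of it and the wild-type libraries 5. The log2 difference was 7.05 (SE 0.94, adjusted p = 0.00222), a fitted fold of 133 that rests on those 5 counts. In the LIN28B libraries it was at most 0.364 CPM and in wild-type fetal liver 0 CPM. The counts cannot show which part of the transcript the reads come from, and the labels do not describe the deleted allele.

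Called genes were more frequent around that locus than on other autosomes. Within 10 Mb of the hairpins 15 of 220 tested genes were called (6.82%), 8 higher and 7 lower, beside 271 of 12535 (2.16%) on the other autosomes. From 10 to 20 Mb away 5 of 138 were called, and beyond 20 Mb 0 of 161. The window was chosen after seeing the data. The calls lay between 7.53 Mb before and 17.4 Mb after the locus, and no call was made among the 251 tested genes further toward the start of the chromosome. The count within 10 Mb was 7 without knockout library 2 or without wild-type library 2, 8 without wild-type library 6, and 4 with the Xist share. The strain labels of the groups differ, and flanking sequence of the deleted allele and the deletion cannot be told apart here.

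**Figure D4:**
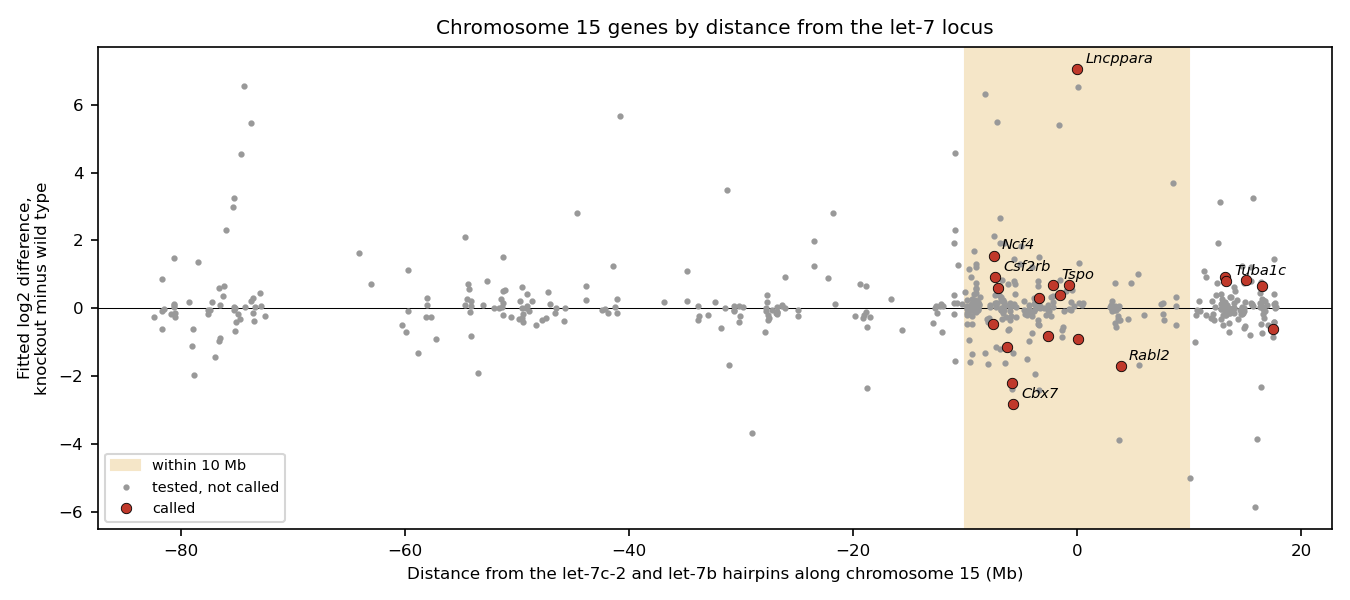
Fitted log2 difference, knockout minus wild type (vertical axis), of the 519 tested genes of chromosome 15 by distance from the let-7c-2 and let-7b hairpins in Mb (horizontal axis). Red points are called genes, which lie from -7.53 to 17.4 Mb, and the shaded band spans 10 Mb on either side.

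Cbx7, a chromobox subunit of Polycomb repressive complex 1, showed the largest called fall by fold near the locus. It lies 5.74 Mb before the hairpins (NM_144811, chromosome 15, 79915804 to 79971143). It stood at 3.84, 2.83 and 3.38 CPM in the knockout and 22.5, 24.3 and 24.5 CPM in the wild type, with log2 difference -2.82 (SE 0.25, adjusted p = 2.79e-05), or 7.08-fold lower. All 4 LIN28B libraries (12.8 to 22.7 CPM) and all 3 fetal liver libraries (7.91 to 12.7 CPM) lay above the knockout libraries. The Polycomb list, which also holds Cbx5, a chromobox gene outside Polycomb, had 15 tested genes. Of these, 0 rose and 2 fell, Cbx7 and Bmi1 (79.6, 86.7 and 94.6 against 117, 124 and 119 CPM, adjusted p = 0.0381). That is 13.3% called, beside 2.25% of all tested genes, and the median log2 difference was -0.09. Bmi1, another subunit of that complex, lost its call without any 1 library other than knockout library 3 (adjusted p = 0.119 to 0.134). Cbx2, Cbx6 and Cbx8 were not called, with log2 differences from -0.22 to 0.14.

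Other genes near the locus changed in both directions. Rabl2, a small GTPase of cilia, fell from 19.6, 22.9 and 22.7 CPM to 7.08, 5.66 and 7.28 CPM (log2 difference -1.70, adjusted p = 0.000188). Ncf4, a subunit of the phagocyte NADPH oxidase, rose from 66.9, 69.6 and 63.0 CPM to 196, 198 and 190.4 CPM (log2 difference 1.55, adjusted p = 0.00129). Tspo, a protein of the outer mitochondrial membrane, rose from 146, 159.7 and 169 CPM to 252, 265 and 239 CPM (log2 difference 0.67, adjusted p = 0.00196). None of these groups overlapped. Csf2rb, the common beta chain of the GM-CSF, IL-3 and IL-5 receptors, stood at 153, 157 and 138 CPM against 79.2, 76.6 and 81.9 CPM (adjusted p = 0.0164), a call lost without knockout library 2 or any 1 wild-type library (adjusted p = 0.0508 to 0.0684). Within 500 kb of the hairpins, Ttc38 fell besides the rise of Lncppara (8.55, 12.7 and 11.8 against 26.8, 16.9 and 18.5 CPM, adjusted p = 0.0331). Its call was lost without any 1 library other than wild-type library 5 (adjusted p = 0.0616 to 0.193). The neighbours Atxn10, Trmu, Cerk, Fbln1, Celsr1 and Pkdrej were not called, and Celsr1, a cadherin, came nearest (8.49, 11.5 and 11.9 against 4.32, 5.04 and 3.40 CPM, adjusted p = 0.0505). Ppara and Wnt7b had 0 counts in the 6 libraries. Ncf4 and Tspo were chosen after their values were seen.

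Among the called genes of the monocyte list, the chemokine receptor gene Ccr2 rose the most in the knockout. Ccr1, another chemokine receptor gene and not on that list, rose too. Ccr2, the receptor for CCL2 that releases monocytes from marrow (NM_009915, chromosome 9, 124101918 to 124109140), stood at 1235, 1572 and 1605 CPM in the knockout and 49.9, 60.8 and 68.3 CPM in the wild type. The lowest knockout library was far above the highest wild-type library. The log2 difference was 4.62 (SE 0.55, adjusted p = 0.000579), or 24.7-fold higher. The 2 vavcre libraries, also high in Xist, stood at 3.17 and 36.4 CPM, the 2 LIN28B libraries without vavcre at 17.6 and 6.88 CPM and fetal liver at 47.0 to 54.7 CPM. Ccr1, a receptor for CCL3 and CCL5 whose gene lies beside Ccr2 on chromosome 9 (123962126 to 123968692), stood at 76.1, 122 and 74.3 CPM against 5.81, 3.75 and 6.08 CPM (log2 difference 4.12, SE 0.30, adjusted p = 6.12e-06). It was at most 12.2 CPM in the LIN28B and fetal liver libraries, so the 3 knockout libraries stood above all the others described here.

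Of 22 tested monocyte genes, 5 rose and 1 fell (27.3% called, beside 2.25% of all tested genes), with a median log2 difference of 0.83. In 11 members every knockout library exceeded every wild-type library (10.3% of all tested genes did), and in 2 the reverse held (10.2% of all). Csf1r, the receptor for the macrophage growth factor CSF1, stood at 240.4, 334 and 206 CPM against 91.5, 113 and 100.2 CPM (log2 difference 1.36, adjusted p = 0.00077). Ly86, a partner of a Toll-like receptor homologue, stood at 105, 122 and 58.7 CPM against 28.1, 36.5 and 37.2 CPM (log2 difference 1.49, adjusted p = 0.00293). Cx3cr1, the fractalkine receptor of patrolling monocytes, stood at 25.0, 40.7 and 26.4 CPM against 9.78, 14.5 and 11.5 CPM (log2 difference 1.36, adjusted p = 0.00574). The fifth, Ifi30, a lysosomal reductase named after its values were seen, lost its call without wild-type library 5 (adjusted p = 0.0605) or knockout library 2 (adjusted p = 0.0704). Ly6c2, which marks classical monocytes, was higher in each knockout library (156, 237 and 90.0 against 55.5, 64.4 and 78.7 CPM) but was not called (adjusted p = 0.184).

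The summed level of the monocyte list was 2097 to 2677 CPM in the knockout and 540.5 to 630.5 CPM in the wild type, most of it Ccr2. Cd14, Fcgr1, Fcgr4, Vcan and S100a4, also of mature monocytes, were each at most 3.85 CPM in the 6 libraries and not called. In bulk RNA more cells of a type and more RNA per cell cannot be told apart.

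Dendritic cell and antigen presentation genes gave mixed results. Of 20 tested dendritic genes 3 rose and 0 fell (15% called, beside 2.25% of all tested genes), with a median log2 difference of 0.49. Pld4, a nuclease of dendritic cells and monocytes, stood at 74.4, 106 and 66.9 CPM against 19.96, 22.5 and 21.3 CPM (log2 difference 1.96, adjusted p = 0.000252). The other called members, Batf3 and Klrd1, were at most 1.75 CPM in all 6 libraries. Batf3 lost its call without any 1 library other than knockout library 3 and wild-type library 5 (adjusted p = 0.0594 to 0.137), and Klrd1 without any 1 library other than knockout library 3 (adjusted p = 0.0565 to 0.158). Siglech, which defines plasmacytoid dendritic cells, was at most 2.60 CPM.

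Of 9 MHC class II genes, H2-Ab1, a chain of the presenting molecule, rose from 39.7, 32.4 and 31.6 CPM to 74.0, 67.5 and 98.9 CPM (log2 difference 1.21, adjusted p = 0.000852). H2-Ob, a chain of the peptide exchange inhibitor DO, fell from 74.4, 71.0 and 77.6 CPM to 41.8, 37.2 and 37.3 CPM (log2 difference -0.94, adjusted p = 0.0066). Of the list 22.2% was called, beside 2.25% of all tested genes, and its median log2 difference was 1.03. H2-Ab1 stood at 53.01 to 66.1 CPM in all 4 LIN28B libraries, above wild-type marrow as well. MHC class I showed 1 of 14 called (7.14%), Tapbpl, a peptide editor, and a median of 0.05. Tapbpl held its call only without knockout library 2 or 3.

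Granule genes of promyelocytes leaned the same way as the monocyte genes, but each call depended on single libraries. Of 19 tested, 3 rose (Prtn3, a granule protease, Igsf6 and Mgst2) and 0 fell. That is 15.8% called, beside 2.25% of all tested genes, and the median log2 difference was 0.44. In 10 members every knockout library exceeded every wild-type library, beside 10.3% of all tested genes. Prtn3 stood at 893, 1117 and 888 CPM against 463, 519 and 575 CPM (adjusted p = 0.0414). None of the 3 calls was made without knockout library 2, wild-type library 2 or wild-type library 6, and 1 was made without wild-type library 5. Prtn3 also lost its call without knockout library 1 (adjusted p = 0.0604). Without knockout library 3, 1 member was called lower. Elane, neutrophil elastase, stood at 569, 1089.9 and 608 CPM against 256, 400.1 and 377 CPM and was not called (adjusted p = 0.307). Of 22 late neutrophil genes 1 rose, Padi4, a histone-modifying enzyme (70.4, 70.9 and 63.1 against 35.3, 32.6 and 44.0 CPM, adjusted p = 0.019), a call lost without knockout library 2 (0.0704), wild-type library 2 (0.0857) or wild-type library 5 (0.0753). Of that list 4.55% was called, and its median was -0.08.

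Of 19 tested megakaryocyte and platelet genes, 5 fell in the knockout, 0 rose and 14 did not pass the test (26.3% called). Of all tested genes, 2.25% were called. The median log2 difference was -0.75, and 9 members had every knockout library below every wild-type library, beside 10.2% of all tested genes. F2rl2, a thrombin receptor, stood at 6.54, 7.02 and 10.04 CPM against 36.7, 18.6 and 21.03 CPM (log2 difference -1.69, adjusted p = 0.0066). Pf4, the platelet chemokine CXCL4, stood at 20.2, 13.1 and 15.2 CPM against 75.8, 28.2 and 38.8 CPM (adjusted p = 0.0205). Its wild-type libraries differed by over 2-fold among themselves, and the call was lost without wild-type library 2 (0.112), knockout library 2 (0.106) or knockout library 3 (0.0607). The other 3 were Gp5, a platelet glycoprotein, Itga2b, the platelet integrin (named after its values were seen), and Fli1, a transcription factor of that lineage. Gp5 lost its call without wild-type library 2 (adjusted p = 0.0856), and Itga2b and Fli1 without any 1 library other than knockout library 3 (adjusted p = 0.0537 to 0.150). Over the list, 1 gene was called with bone marrow libraries only, 1 without wild-type library 2, 2 without knockout library 2 and 3 without knockout library 1 or wild-type library 5. Pf4 was also low in the LIN28B libraries (8.32 to 20.2 CPM) and fetal liver (2.96 to 5.33 CPM).

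Red cell genes showed a smaller share of calls than megakaryocyte genes. Of 27 tested, 3 fell (Gata1, Hemgn and Icam4) and 0 rose by edgeR, and by DESeq2 3 fell and 0 rose too. That is 11.1% called by edgeR, beside 2.25% of all tested genes. At an unadjusted p under 0.05, 3 were higher and 6 lower, and the median was -0.14. Icam4, a red cell adhesion molecule, stood at 19.5, 16.4 and 24.5 CPM against 38.3, 34.8 and 41.2 CPM (log2 difference -0.92, adjusted p = 0.000851). Gata1, the X-linked master factor of red cells and platelets, stood at 56.9, 82.1 and 83.4 CPM against 113, 131 and 128 CPM (adjusted p = 0.0219). Its call was lost without knockout library 1 (0.0731) or any 1 wild-type library (0.0600 to 0.0849). Hemgn, a nuclear protein of red cell precursors, stood at 24.6, 41.8 and 29.1 CPM against 56.7, 63.2 and 54.6 CPM (adjusted p = 0.033), and held its call only without knockout library 2. The count of calls was 1 without knockout library 1 or any 1 wild-type library and 5 without knockout library 2, and 1 member was called higher without knockout library 1 or 3. Slc4a1, the anion exchanger of later red cells, overlapped between the groups (37.8 to 42.1 against 21.3 to 103 CPM). Of 18 stem and multipotent progenitor genes only Hlf, a stem cell transcription factor, fell (58.5, 38.9 and 64.9 against 107, 89.0 and 89.7 CPM, adjusted p = 0.0153, and 0.0857 without wild-type library 2), with 0 higher and a median of -0.24. That is 5.56% of the stem list called by edgeR, and DESeq2 called 1 member of it higher.

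Mast cell, basophil and eosinophil genes moved in opposite directions. Fcer1a, the alpha chain of the IgE receptor, stood at 10.8, 11.2 and 9.99 CPM against 0.397, 0.703 and 0.219 CPM (log2 difference 4.59, SE 0.55, adjusted p = 0.00077), or 24.0-fold higher. Cpa3, the mast cell carboxypeptidase, stood at 142, 84.6 and 94.8 CPM against 301, 216 and 319 CPM (log2 difference -1.38, SE 0.23, adjusted p = 0.00741). Both pairs of groups were fully apart. Gata2, a transcription factor of stem, mast and megakaryocyte cells, stood at 314, 211 and 378 CPM against 479, 478 and 457 CPM (adjusted p = 0.0355), and held its call only without knockout library 3. Il1rl1, the IL-33 receptor, fell too, a call lost without any 1 library other than knockout library 3 and wild-type library 5 (adjusted p = 0.0741 to 0.178). Cma1, a chymase, had 0 counts in the wild type and at most 1.66 CPM in the knockout, at least 22.4-fold higher when the wild-type libraries together are set at 3 counts. It lost its call without wild-type library 2 (0.0661) or 6 (0.0554). Mcpt8, a basophil protease, overlapped between the groups (19.7 to 42.3 against 17.9 to 26.3 CPM). In all, 2 of 21 tested members rose and 3 fell (23.8% called, beside 2.25% of all tested genes), with a median of 0.42. The rises numbered 1 without wild-type library 2 or 6 and 4 without knockout library 3, and the falls 1 without knockout library 1 or 2 or wild-type library 2 or 6. Knockout library 2 alone held high levels of eosinophil granule genes, 86.0 CPM of Prg2 and 47.2 CPM of Epx, which were at most 0.645 and 0.274 CPM in the other 5 libraries. The same library was highest in Slc26a1, an anion transporter (1.41, 32.8 and 5.20 CPM against 0.0993, 0.351 and 0.274 CPM, adjusted p = 0.0101, and 0.0642 without wild-type library 2).

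Immediate early genes, transcription factors and regulators that cells induce within minutes of a stimulus, held the largest share of calls of any list. Of 20 tested, 9 rose and 0 fell by edgeR (45.0% called, beside 2.25% of all tested genes), and the median log2 difference was 0.99. In 14 every knockout library exceeded every wild-type library, beside 10.3% of all tested genes. At an unadjusted p under 0.05, 12 were higher and 0 lower, and DESeq2 called 11 higher and 0 lower. Jun stood at 391, 442 and 433 CPM against 19.1, 14.6 and 14.1 CPM (log2 difference 4.73, SE 0.42, adjusted p = 2.79e-05), or 26.5-fold higher. Fos, its partner in the AP-1 factor, stood at 82.6, 109.6 and 54.0 CPM against 2.08, 1.11 and 1.59 CPM (log2 difference 5.67, SE 0.63, adjusted p = 0.00026). Dusp1, a phosphatase of MAP kinases, stood at 85.7, 113 and 152 CPM against 23.2, 18.5 and 19.7 CPM (log2 difference 2.51, adjusted p = 0.000135). These 3 genes were thus high in every knockout library and low in every wild-type marrow library. Zfp36, which destabilises cytokine messages, and Klf2, a transcription factor, rose by 2.08 and 2.57 on the log2 scale (adjusted p = 0.000506 and 0.00288). Ier2 and Junb rose by 1.25 and 1.05 (adjusted p = 0.00118 and 0.00781). Ier2, Junb, Fosb and Ier5 were named after their values were seen. Fosb, with 2 counts in the wild type, lost its call without wild-type library 6 (adjusted p = 0.0508), and Ier5 lost it without any 1 library other than knockout library 3 (adjusted p = 0.0564 to 0.136). Egr1 was higher in each knockout library (23.3, 13.6 and 33.0 against 2.88, 2.40 and 9.37 CPM) and was not called (adjusted p = 0.0621).

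The same genes were also high in LIN28B marrow. Jun stood at 444 and 972 CPM without vavcre and 627 and 689 CPM with it, and Fos at 32.2 and 164 and at 100.5 and 84.3 CPM. The summed level of the list was 1446 to 1496 CPM in the knockout, 448 to 471 CPM in wild-type marrow, 1402 to 2970 CPM in the 4 LIN28B libraries and 396 to 522 CPM in wild-type fetal liver. Among adult marrow libraries, the 3 wild-type ones were thus the low ones on this list. The 2 inducible heat shock proteins followed the same pattern. Hspa1a stood at 111, 271 and 127 CPM in the knockout, 10.3, 12.6 and 8.87 CPM in the wild type and 56.9 to 295 CPM in the LIN28B libraries (log2 difference of the knockout 4.002, SE 0.55, adjusted p = 0.00141). Hspa1b, a near-identical copy whose reads the counting could split, stood at 155, 398 and 193 against 29.7, 25.6 and 26.3 CPM (log2 difference 3.19, adjusted p = 0.00141). The other heat shock genes did not move with them. Of 20 tested 2 rose and 1 fell (15% called, beside 2.25% of all tested genes), with a median of 0.01. Hspa8, Hsp90aa1 and Dnajb1 overlapped between the groups. Hspa4l fell (54.5, 64.1 and 72.4 against 90.5, 109 and 102 CPM, adjusted p = 0.0227), and held its call only without knockout library 3. Whether the 3 wild-type libraries were made together, apart from the others, cannot be read from the labels.

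**Figure D5:**
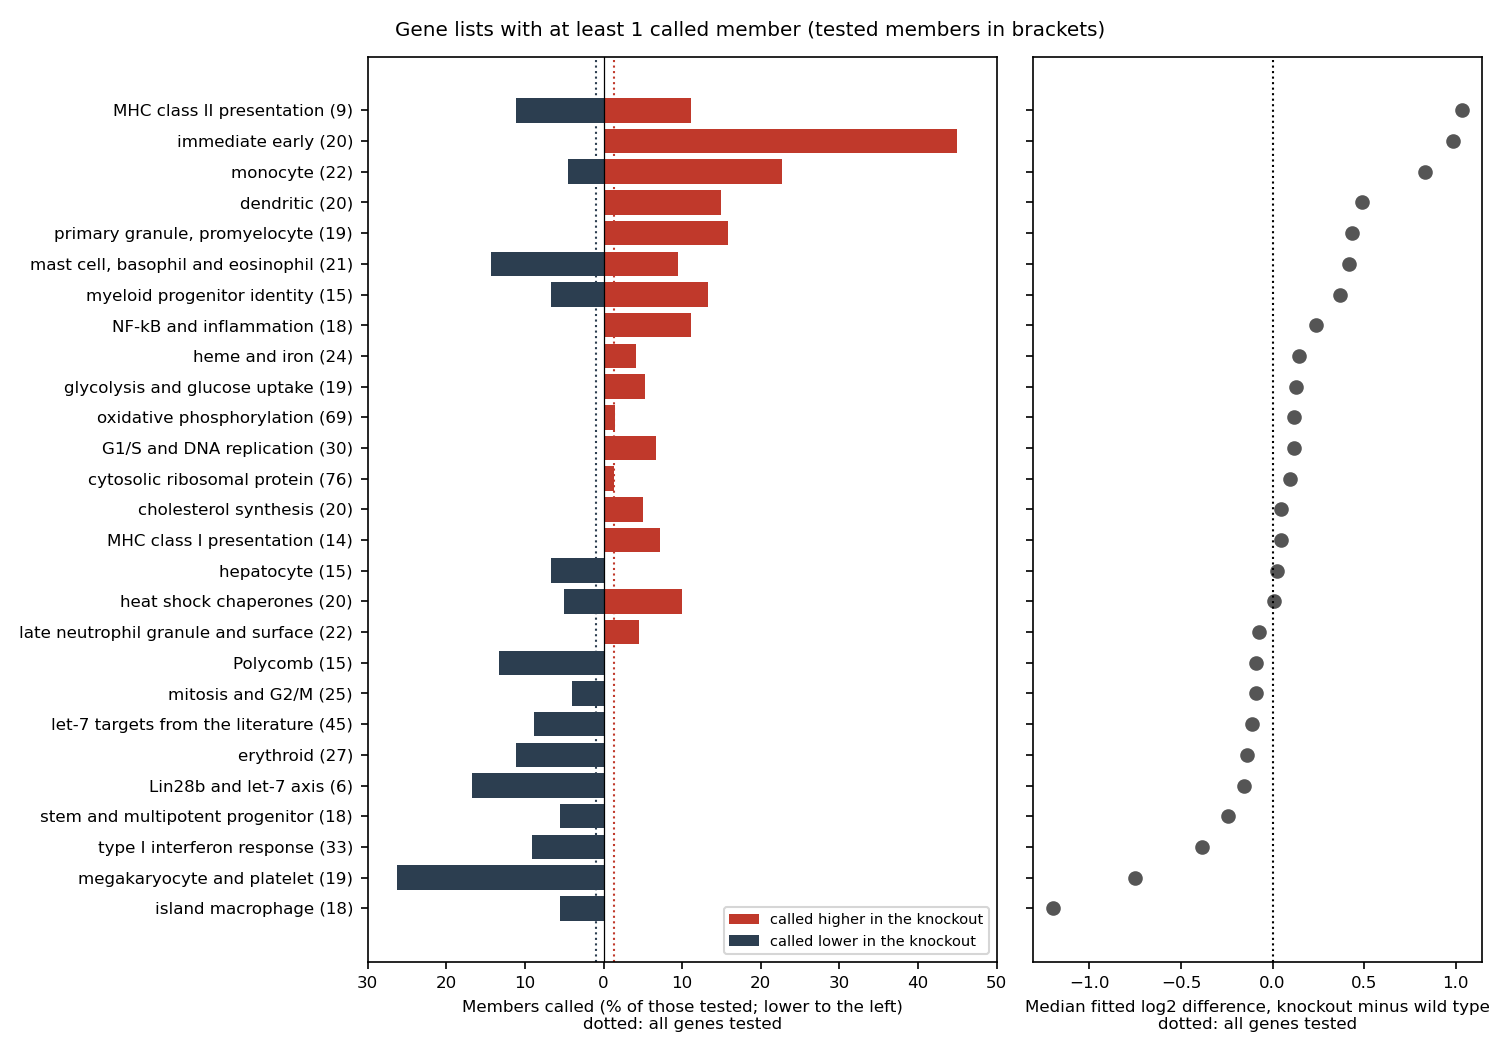
Share of tested members called higher (red, right) and lower (dark, left) in the knockout and median fitted log2 difference (points) for each gene list with at least 1 call, with dotted lines for all 13558 tested genes. The immediate early list has the largest share called higher (45.0%) and the megakaryocyte list the largest share called lower (26.3%).

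Interferon response genes were lower where called. Of 33 tested, 3 fell and 0 rose by edgeR (9.09% called, beside 2.25% of all tested genes). At an unadjusted p under 0.05, 1 was higher and 8 were lower. DESeq2 called 4 lower and 0 higher, and the median log2 difference was -0.39. In 11 every knockout library lay below every wild-type library, beside 10.2% of all tested genes. Oasl2, an oligoadenylate synthetase relative, stood at 8.71, 4.41 and 15.03 CPM against 43.5, 41.6 and 39.8 CPM (log2 difference -2.15, SE 0.30, adjusted p = 0.00166). Samd9l, an antiviral protein, stood at 46.8, 35.0 and 45.4 CPM against 96.0, 74.1 and 86.5 CPM (log2 difference -1.01, adjusted p = 0.00651). Rtp4 stood at 19.8, 11.9 and 22.9 CPM against 35.8, 36.8 and 36.2 CPM (adjusted p = 0.0426), and held its call only without knockout library 3. The LIN28B libraries were higher than the knockout in all 3 of these genes (29.6 to 107, 80.7 to 134 and 35.6 to 108 CPM). Irf7 had 0 counts and was not analysed here.

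Among the largest falls outside these lists was Plxdc2, a plexin-domain receptor, at 1.62, 0.226 and 1.92 CPM against 11.4, 13.3 and 15.5 CPM (log2 difference -3.40, SE 0.43, adjusted p = 0.000838), or 10.5-fold lower. Gucy1a1, a subunit of the nitric oxide receptor, stood at 1.73, 2.15 and 4.01 CPM against 23.4, 7.61 and 15.3 CPM (log2 difference -2.55, adjusted p = 0.00678). Cavin2, a protein of caveolae, stood at 7.73, 6.00 and 9.62 CPM against 31.2, 25.3 and 27.1 CPM (log2 difference -1.84, adjusted p = 0.00574). In each the knockout libraries were all below the wild-type libraries. Slc16a11, Slc35d3 and St8sia6 also fell, by 2.46, 1.71 and 1.66 on the log2 scale, and each lost its call without wild-type library 2 (adjusted p = 0.0687, 0.0857 and 0.0981) and without knockout library 2 (0.0848, 0.0837 and 0.0995). Slc16a11 also lost it without wild-type library 5 or knockout library 1, Slc35d3 and St8sia6 without knockout library 3 and St8sia6 without wild-type library 6. Mpeg1, the perforin of macrophages, rose (55.8, 51.2 and 16.6 against 5.26, 2.52 and 11.6 CPM, adjusted p = 0.0112, and 0.0673 without wild-type library 2).

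Rab35, a GTPase of endosome recycling, had the smallest adjusted p of the comparison (82.4, 86.7 and 80.0 against 19.8, 19.7 and 24.8 CPM, log2 difference 1.95, SE 0.13, adjusted p = 3.7e-06), and was 10.9 to 24.9 CPM in the LIN28B and fetal liver libraries. Cenpv, a centromere protein, stood at 44.1, 61.8 and 51.8 CPM against 13.3, 17.1 and 17.4 CPM (log2 difference 1.72, adjusted p = 2.79e-05). Il6st, the signalling chain of the IL-6 receptor, stood at 158, 200.2 and 139.7 CPM against 59.2, 73.7 and 51.9 CPM (log2 difference 1.43, adjusted p = 0.000838). These 3 genes were chosen after their values were seen. Cenpv was at 36.1 to 50.8 CPM in all 4 LIN28B and all 3 fetal liver libraries, so that wild-type marrow was the low group for it, while the knockout was the high group for Rab35 and Il6st.

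Lists of growth and metabolism held few calls each, and the share called in each stands beside 2.25% of all tested genes. Of 30 G1/S genes Cdt1, a replication licensing factor, and Ccne1, cyclin E1, rose (6.67% called, median 0.12). DESeq2 called 6 G1/S genes higher and 0 lower. Of 25 mitosis genes Mki67 fell (789.8, 876 and 649 against 1009.5, 1008 and 1002 CPM), with 4% called and a median of -0.09. Of 69 oxidative phosphorylation genes 1 rose, Ndufa10 (1.45% called, median 0.12). In 20 members of that list every knockout library exceeded every wild-type library, beside 10.3% of all tested genes, and 16 were higher and 0 lower at an unadjusted p under 0.05, with 10 higher and 0 lower by DESeq2. Of 76 ribosomal protein genes 1 rose, Rps2 (1.32% called, median 0.10), and of 24 heme and iron genes 1, Ftl1 (4.17%, median 0.14). Of 19 glycolysis genes 1 rose, Pdk1 (5.26%, median 0.13), and of 20 cholesterol synthesis genes 1, Dhcr7 (5%, median 0.05). Of 18 genes of NF-kB and inflammation 2 rose, the chemokines Ccl3 and Ccl4 (11.1% called, median 0.24). All of these calls except that of Dhcr7 were lost without wild-type library 2 (adjusted p = 0.0557 to 0.150) and others besides, and Dhcr7 lost its call without knockout library 2 (0.0582), wild-type library 5 (0.0598) or wild-type library 6 (0.0706). No gene was called by edgeR in the lists of D cyclins and their inhibitors (11 tested, 2 higher and 1 lower at an unadjusted p under 0.05), p53 response (18, 2 and 1), imprinted growth (11, 1 and 0), stefins (9, 0 and 0), B lymphoid (17, 1 and 0), T and NK (16, 2 and 2), stroma and endothelium (11, 1 and 1) or substrain differences (5, 0 and 0). DESeq2 called 1 higher in the D cyclin list, 2 higher in the p53 list, 1 higher and 2 lower in the T and NK list, and none in the others. Of 15 hepatocyte genes 1 fell (6.67% called, median over the list 0.02), Hnf4a (12.4, 5.49 and 10.5 against 30.0, 23.8 and 30.2 CPM). The Hnf4a call was lost without any 1 of the 6 libraries (adjusted p = 0.0589 to 0.177). Of 18 island macrophage genes 8 had every knockout library below every wild-type library, beside 10.2% of all tested genes, and 1 was higher and 8 were lower at an unadjusted p under 0.05 by edgeR. DESeq2 called 1 higher and 2 lower. By edgeR 1 of the 18 fell (5.56% called, median over the list -1.20), C1qc (at most 0.832 against at least 3.34 CPM). The C1qc call was lost without any 1 library other than knockout library 3 (adjusted p = 0.0654 to 0.113). Tyr, the pigment enzyme mutated in albino mice, stood at 2.32 to 3.62 CPM in the knockout and 2.04 to 2.28 CPM in the wild type and was not called.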

How the data were processed

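Libraries were made from total RNA of sorted CMPs with a SMARTer ultra low input kit, per the labels' protocols. Reads were handled with cutadapt, TopHat2 and HTSeq on the build mm10, per the submitters' processing notes. The deposited values are raw read counts per RefSeq transcript, made by the authors; the labels do not state a strand setting. Rows that name no transcript (ambiguous reads, 23.8 to 25.5% in these 6 libraries, and reads with no feature, 15.1 to 19.3%) were left out, and transcripts were summed per gene with RefSeq GRCm38.p6 names. Counting per transcript leaves out reads shared by transcripts: of 5108 genes with more than 1 transcript, 1328 were at 0. edgeR 4.0.16 (R 4.3.3) fitted all 17 libraries in 7 groups with TMM scaling and its quasi-likelihood test, and p-values were Benjamini-Hochberg adjusted over 13558 genes. The test was checked on simulated data in which all genes shared the same spread between libraries. That spread was smaller than the one fitted here (common dispersion 0.0701), so the check gives no error rate for these data. CPM use TMM-scaled library sizes. let-7 matches were searched in annotated GRCm38 UTRs. Genes were named by rule: let-7 axis, genes within 500 kb of the locus, the 12 largest called rises and falls among genes whose groups did not overlap and whose higher group reached 10 CPM (without predicted genes, Xist and Y genes), up to 4 called members per list and direction and 6 called genes each way with most let-7 matches, and others as stated. Members and lists were chosen with earlier results of these data known. Alternatives were DESeq2 1.42.0, other scalings, filters and samples, each library left out, and, added after seeing the data, the Xist share and X and Y genes left out. Results for a few genes are not reported here.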

Additional observations from a re-analysis of the deposited data

How the results depend on the processing

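The count of called genes (305) was 783 with the DESeq2 test (466 higher, 317 lower, all 305 shared), 113 with bone marrow libraries only (74 and 39), 117 at a change of at least 2-fold and 28 with the Xist share (18 and 10), and lay between 96 and 378 with 1 library left out (64 to 235 higher, 32 to 143 lower). It was 325 with DESeq2 size factors, 377 with no filter, 253 with these 6 libraries only, 305 with genes of 1 transcript and 292 without X and Y genes. The share called higher was 59.0%, and 73.6% without knockout library 1. The cause of these differences was not tested.

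For the median log2 difference, let-7 site genes had a value of -0.0196, which was -0.00877 with DESeq2 size factors and -0.00575 for 8mers, and with 1 library left out lay between -0.0124 and 0.0117, the latter without wild-type library 2, where the median of all genes was 0.0363. Genes of the axis that were never called changed sign: Igf2bp1 (-0.95 to 0.69, with 0.22 without knockout library 2 or 3), Igf2bp2 (-0.32 to 0.030), Igf2bp3 (-0.19 to 0.086), Lin28a (-0.64 to 0.62, with -0.25 without wild-type library 5) and Lin28b (-1.21 to 0.37).

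Of 79 called genes chosen by the rule, 29 kept the call in every alternative other than the 2 added after seeing the data and 17 with the Xist share; none changed sign. No paired analysis was possible because the labels of the groups share a single replicate number. Depth limits genes under about 1 CPM, among them Lin28b and Trim71, and 3 libraries a group limit all calls.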
